A study of Homo sapiens with 27 samples.

Results

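The libraries described here compare a short piggyBac transposon with the wild-type transposon when both were mobilised by hyperactive piggyBac transposase. They were chosen by their labels alone: 3 libraries of the short transposon with hyperactive piggyBac (short_hyPB) and 3 libraries of the wild-type transposon with the same transposase (WT_hyPB), 6 of the 27 libraries of the series. The labels do not say in what way the short transposon is short. All 6 came from HCT116, an established human colorectal carcinoma line, transfected with self-reporting transposons and selected for 2 weeks in puromycin at 3 µg/ml. In such a transposon a promoter drives transcription outwards into the neighbouring DNA, so that an insertion is read from RNA as a peak of coverage that begins at the junction. The labels give no information on clones or separate transfections, and p-values below measure only the spread between these libraries, which may be technical. The other 7 groups, used only for the comparisons named below, paired the wild-type transposon with piggyBac (WT_PB) or its re-engineered forms (WT_rePB, WT_rehyPB), the short transposon with piggyBac (short_PB), a symmetric transposon with re-engineered transposases (sym_rePB, sym_rehyPB), and piggyBat with its own transposon (WT_PBat).

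PiggyBac is a cut-and-paste transposase that excises DNA between a pair of terminal repeats and joins it to the 4-base target TTAA, which is duplicated on both sides of the insertion. The hyperactive form carries substitutions that raise excision and integration. Insertions of piggyBac are known to favour open chromatin, start sites of transcription and active enhancers.

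The letters under the insertion sites could be read only in promoter windows, which run from 250 bases before to 50 bases after a RefSeq start site (GRCh38.p14). Of 34961 such windows on chromosomes 1 to 22 and X, 46.1% hold a TTAA on either strand, and the word reads the same on both. A mean of 132 ± 3.46 (SD, n = 3) sites per short_hyPB library fell into these windows, and 97.5% ± 0.82 of them stood exactly on TTAA, the counts being 126 of 128, 130 of 134 and 130 of 134. In WT_hyPB the same share was 97.5% ± 0.44 (SD, n = 3) of a mean of 2823 sites, and the groups' ranges overlapped. In all, 33 positions in windows were listed in all 3 short_hyPB libraries, and 29 of them were also listed in WT_hyPB. The 5 tallest are printed because they are the clearest shared targets. Each is given 5′ to 3′ in the direction of its gene, with the target TTAA of the insertion in capitals.

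EFCAB2-AS1: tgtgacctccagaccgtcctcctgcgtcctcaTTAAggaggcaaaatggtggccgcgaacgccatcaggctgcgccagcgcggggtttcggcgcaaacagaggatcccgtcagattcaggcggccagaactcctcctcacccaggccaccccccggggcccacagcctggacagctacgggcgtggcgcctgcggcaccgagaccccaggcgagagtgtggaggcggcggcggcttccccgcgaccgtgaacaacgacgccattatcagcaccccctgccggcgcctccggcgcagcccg

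PCOLCE2: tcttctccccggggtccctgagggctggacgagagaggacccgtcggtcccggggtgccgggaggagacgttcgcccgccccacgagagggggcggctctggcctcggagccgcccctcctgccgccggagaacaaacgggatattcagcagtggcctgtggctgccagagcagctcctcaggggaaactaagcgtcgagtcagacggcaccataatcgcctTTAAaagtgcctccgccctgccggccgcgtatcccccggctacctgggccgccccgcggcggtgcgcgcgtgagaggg

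DLGAP1-AS2: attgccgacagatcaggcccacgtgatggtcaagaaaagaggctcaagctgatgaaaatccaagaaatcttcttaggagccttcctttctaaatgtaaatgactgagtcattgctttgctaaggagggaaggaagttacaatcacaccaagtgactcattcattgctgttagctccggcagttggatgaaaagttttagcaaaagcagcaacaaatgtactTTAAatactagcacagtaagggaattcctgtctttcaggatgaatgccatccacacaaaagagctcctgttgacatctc

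MORC3: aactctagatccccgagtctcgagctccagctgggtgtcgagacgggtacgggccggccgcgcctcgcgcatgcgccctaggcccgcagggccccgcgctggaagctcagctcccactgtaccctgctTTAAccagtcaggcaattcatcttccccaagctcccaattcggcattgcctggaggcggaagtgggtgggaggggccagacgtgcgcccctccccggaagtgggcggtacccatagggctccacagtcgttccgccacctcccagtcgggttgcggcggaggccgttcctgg

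LOC101928279: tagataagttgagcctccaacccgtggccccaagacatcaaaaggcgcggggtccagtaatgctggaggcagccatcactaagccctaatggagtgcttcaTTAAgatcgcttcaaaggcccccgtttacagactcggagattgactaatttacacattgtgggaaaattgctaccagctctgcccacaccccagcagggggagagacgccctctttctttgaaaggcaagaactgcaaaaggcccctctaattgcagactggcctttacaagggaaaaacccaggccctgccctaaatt

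The window of EFCAB2-AS1, an antisense RNA, lies at chr1:244970820-244971119 on the minus strand, and its target starts 218 bases before the start site. Peak heights, meaning the highest coverage within a peak, were 28, 12 and 18 in short_hyPB replicates 1, 2 and 3 and 156, 168 and 178 in WT_hyPB. PCOLCE2, which encodes an enhancer of procollagen processing, has its window at chr3:142889034-142889333 on the minus strand with the target 28 bases before the start, and heights of 11, 15 and 28 against 172, 172 and 154. At this promoter and the preceding one every WT_hyPB height was above every short_hyPB height, as their file totals were. The window of DLGAP1-AS2, chr18:3603487-3603786 on the plus strand, has its target 29 bases before the start, with heights of 15, 20 and 12 against 72, 148 and 179. The window of MORC3, a nuclear ATPase that binds methylated histone H3, is at chr21:36319947-36320246 on the plus strand, with its target 122 bases before the start and heights of 10, 22 and 11 against 130, 131 and 124. The last of the 5, the window of the uncharacterised LOC101928279 at chr4:4761510-4761809 on the plus strand, had heights of 16, 8 and 15 against 61, 72 and 56. Each of these 5 targets was thus used by both transposons in every replicate.

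The 4 positions listed in all 3 short_hyPB libraries but in no WT_hyPB library lay in the windows of ZFX, GNAL, COLGALT1 and HAPLN3. A pair of them, chosen after their values were seen, shows the same target letters.

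ZFX: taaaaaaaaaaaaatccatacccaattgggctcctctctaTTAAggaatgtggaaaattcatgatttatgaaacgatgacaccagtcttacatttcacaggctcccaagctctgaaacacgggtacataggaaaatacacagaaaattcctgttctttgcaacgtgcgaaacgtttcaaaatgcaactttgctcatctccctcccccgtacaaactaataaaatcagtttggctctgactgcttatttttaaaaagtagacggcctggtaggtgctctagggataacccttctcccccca

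COLGALT1: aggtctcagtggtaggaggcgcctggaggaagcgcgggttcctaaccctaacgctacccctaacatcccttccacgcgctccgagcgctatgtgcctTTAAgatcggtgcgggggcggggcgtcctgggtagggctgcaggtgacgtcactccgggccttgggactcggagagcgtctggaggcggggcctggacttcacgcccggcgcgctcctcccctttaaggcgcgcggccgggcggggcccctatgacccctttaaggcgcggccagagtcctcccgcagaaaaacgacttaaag

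The ZFX window, of a zinc-finger transcription activator, is at chrX:24148732-24149031 on the plus strand and had heights of 13, 12 and 9 in short_hyPB. The COLGALT1 window, of a collagen galactosyltransferase, is at chr19:17555399-17555698 on the plus strand and had heights of 9, 10 and 8. Both targets are TTAA, as in the windows that the wild-type transposon used too. Over all windows, 28785 TTAA could have been hit. Any short_hyPB library listed a site at 261 of them (0.907%) and any WT_hyPB library at 4292 (14.9%). The overlap of 222 made up 85.1% of the short_hyPB targets and 5.17% of the WT_hyPB targets. The base next to the target was also read. The word TTTAA on at least 1 strand was present at 60.0% of all TTAA in windows whose neighbours could be read, at 71.7% of the 258 distinct short_hyPB targets and at 67.4% of the 4263 WT_hyPB targets. Per library it was 68.3%, 74.2% and 72.7% in short_hyPB and 68.3%, 69.1% and 68.4% in WT_hyPB, so that over all sites short_hyPB libraries lay on both sides of the WT_hyPB range. In number-matched sets the groups did not overlap, though each library had few targets. It was 68.3%, 74.2% and 71.8% of 123, 128 and 117 targets in short_hyPB. In WT_hyPB it was 65.8%, 65.4% and 63.7% of 152, 156 and 146. Windows with a short_hyPB site had a median GC content of 58.3%, against 53.0% with any WT_hyPB site, 59.3% with a number-matched WT_hyPB site, 48.0% for windows holding a TTAA and 58.7% for all windows.

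The most visible difference between the transposons was the number of insertions recovered. Short_hyPB libraries listed 7443, 6896 and 7505 distinct sites and WT_hyPB libraries 412968, 408331 and 453193, a mean of 7281 ± 335 against 424831 ± 24672 (SD, n = 3 each), which is 58.3 times more with the wild-type transposon. The file totals, a constant per list taken here as mapped reads, were 252304, 241556 and 256608 against 9286833, 9027487 and 9749822, or 37.4 times larger in WT_hyPB. Divided by these totals, short_hyPB gave 29098 ± 493 sites per 1000000 and WT_hyPB 45394 ± 1017 (SD, n = 3), with no overlap (two-sided exact permutation test, p = 0.1, the smallest that 3 against 3 allows; adjusted p = 0.109 over 12 measures). Site number does not scale linearly with depth, so this ratio does not measure transposition. Heights differed as well: the median was 6 in each short_hyPB library and 10 to 11 in WT_hyPB, the tallest peaks were 58 to 73 and 435 to 513, and 54.8% ± 0.59 against 23.9% ± 1.83 of sites (SD, n = 3) stood at heights of 5 or 6, just above the lowest listed height of 5. A site was therefore set against its counterparts in a second way, in number-matched sets made of the 6896 tallest sites of each library, the size of the smallest library. In WT_hyPB these sets reach down to heights of 83, 80 and 78, so they hold the strongest wild-type sites, while in short_hyPB they hold nearly every site. Both views are given below, because several shares depend on which is used.

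The WT_hyPB libraries are not equally independent. WT_hyPB replicates 1 and 2 listed 74.2% and 75.1% of each other's peaks at the same base and strand, while each shared 23.4% to 26.2% with replicate 3. At shared peaks, the heights of replicates 1 and 2 were scaled by their sums over those peaks. They differed with a chi-square per degree of freedom of 1.21, against 6.12 and 6.02 for the pairs with replicate 3. The short_hyPB pairs gave 1.18 to 1.21 over far lower heights. WT_hyPB replicates 1 and 2 are kept as 2 replicates, as labelled. The numbers of number-matched bins and genes called are also given with their mean counted as 1 sample.

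Short-transposon insertions lay closer to start sites of transcription than wild-type insertions. Within 5 kb of a start site lay 28.4%, 29.6% and 28.7% of all short_hyPB sites and 16.3%, 16.4% and 16.3% of all WT_hyPB sites, means of 28.9% ± 0.63 and 16.4% ± 0.077 (SD, n = 3). The difference was 12.5 percentage points ± 0.36 (SE). Among number-matched sites the means were 29.0% ± 0.59 and 26.9% ± 0.30, a difference of 2.09 points ± 0.38 (SE). Neither comparison had overlapping libraries, and both had p = 0.1 and adjusted p = 0.109 in the exact permutation test, the smallest this design allows. The gene-end share, the share of sites no more than 5 kb from the start or end of a gene, was ordered in the same way, at 46.0% ± 0.17 against 33.5% ± 0.15 for all sites and 46.2% ± 0.03 against 44.4% ± 0.50 for number-matched sites (SD, n = 3). The median distance to a start site was 18.0 kb ± 0.64 in short_hyPB, 31.1 kb ± 0.19 in WT_hyPB and 22 kb ± 0.61 (SD, n = 3) in number-matched WT_hyPB. The order of the number-matched groups held at 5 kb and turned at 1 kb: 12.3% ± 0.085 of short_hyPB and 13.1% ± 0.091 of WT_hyPB sites lay within 1 kb of a start site (SD, n = 3), a difference of -0.83 points.

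**Figure D1:**
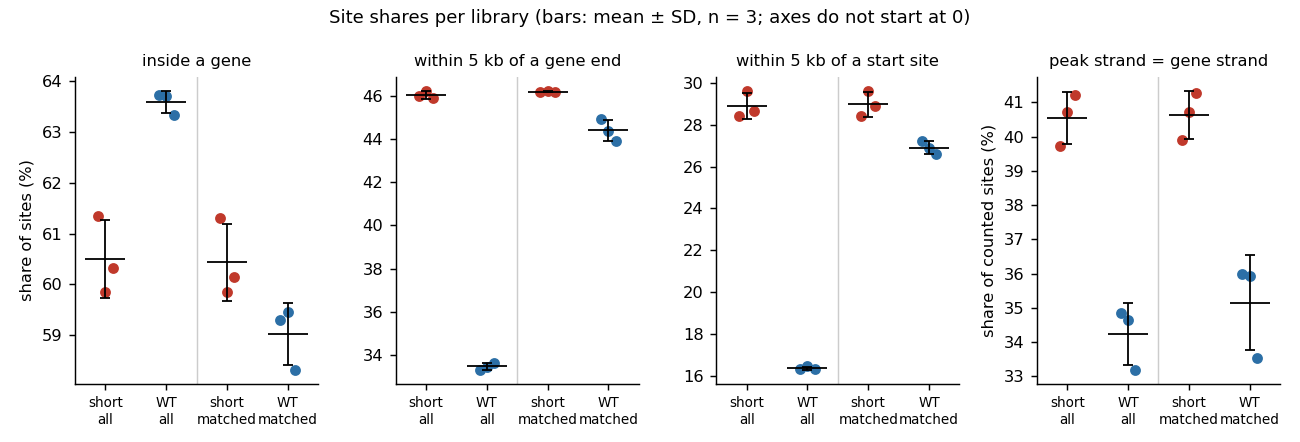
Shares of sites (%) per library, for all sites and for the 6896 tallest sites of each library (matched), with points for the 3 replicates and bars for mean ± SD; the last panel counts only sites within protein-coding genes of 1 strand. The start-site shares of all sites stand at 28.4% to 29.6% in short_hyPB and 16.3% to 16.4% in WT_hyPB and come within 2.09 points of each other on average after matching, while the gene shares change order.

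The next intervals were measured from start sites of protein-coding genes only, while the shares above used all genes with a promoter window. The order in these intervals also turned with distance. In the 500 bases before the start site, number-matched WT_hyPB held 7.87% ± 0.017 of its sites per kb and short_hyPB 5.99% ± 0.17, and in the 500 bases after it 4.51% ± 0.12 and 2.99% ± 0.29 (SD, n = 3). From 500 to 1000 bases before the start the order was the other way, 6.27% ± 0.16 per kb in WT_hyPB and 7.45% ± 0.32 in short_hyPB. The same held from 500 to 1000 bases after the start, at 2.64% ± 0.13 and 3.90% ± 0.060 (SD, n = 3), and at 1 to 2 kb before it, at 2.65% ± 0.073 and 3.5% ± 0.087. The libraries did not overlap in any of these 5 intervals. Within 500 bases the strongest wild-type sites were thus denser, and beyond that short-transposon sites were denser out to 5 kb on either side. All WT_hyPB sites together were less dense than short_hyPB in every interval, for example 2.13% ± 0.034 per kb in the 500 bases before the start.

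**Figure D2:**
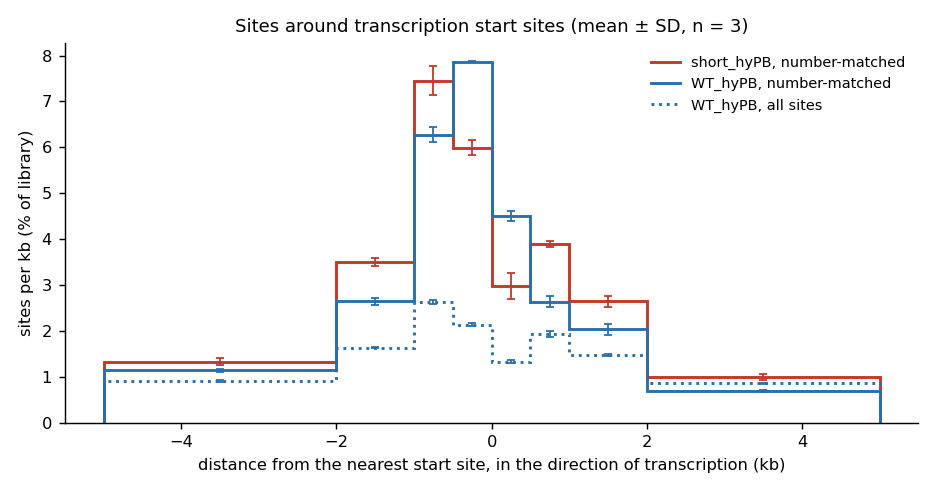
Density of sites (% of a library's sites per kb) against distance in kb from the nearest start site of a protein-coding gene, negative before it in the direction of transcription. Steps show the mean and bars the SD of 3 libraries. Number-matched WT_hyPB peaks at 7.87% per kb in the 500 bases before the start and short_hyPB at 7.45% per kb between 500 and 1000 bases before it.

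Among wild-type sites, the share near start sites and the share listed in short_hyPB both went with height. WT_hyPB sites were put into 7 classes by rank of height, the tallest class holding ranks 1 to 6896. The start-site share fell from 26.9% ± 0.30 in the tallest class to 14.4% ± 0.11 in the class that begins at rank 220673 (SD, n = 3), and the gene-end share from 44.4% ± 0.50 to 31.1% ± 0.37. The share of these sites that any short_hyPB library also listed fell from 20.2% ± 0.60 to 0.286% ± 0.014. The start-site share of short_hyPB was 27.3% ± 0.83 at heights of 5 to 6, 30.5% ± 1.62 at 7 to 9 and 31.3% ± 1.34 at 10 to 19 (SD, n = 3). At the same heights it was 14.2% ± 0.13, 14.7% ± 0.12 and 15.9% ± 0.12 in WT_hyPB. In no class of WT_hyPB did the mean start-site share reach the 28.9% of short_hyPB.

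**Figure D3:**
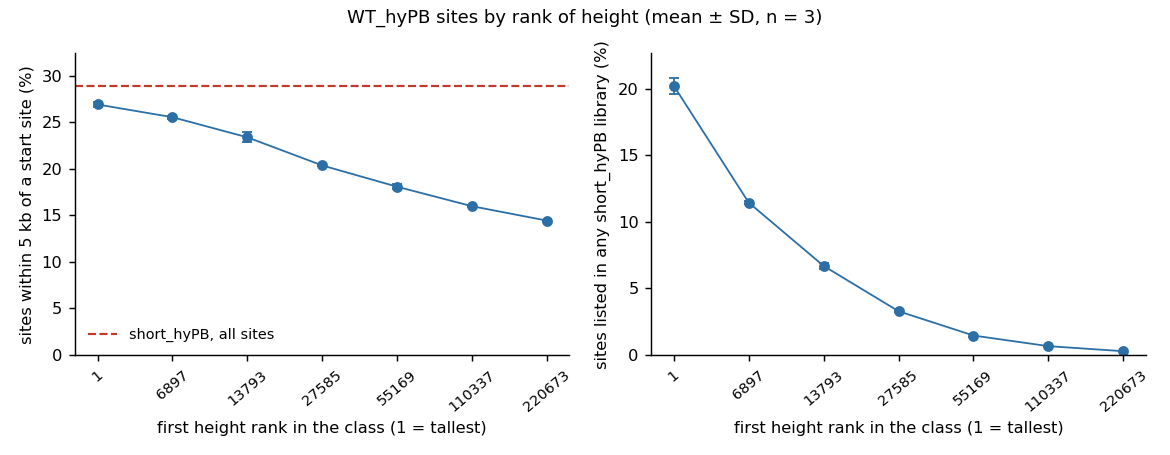
WT_hyPB sites in 7 classes of falling height, named by their first rank; the left panel gives the share (%) within 5 kb of a start site with the short_hyPB mean as a dashed line, the right panel the share (%) listed in any short_hyPB library, as mean ± SD of 3 libraries. Both fall along the ranks, from 26.9% to 14.4% and from 20.2% to 0.286%.

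The gene share, meaning sites that lie in an annotated gene, gave no order that held. Over all sites it was 60.5% ± 0.77 in short_hyPB and 63.6% ± 0.22 in WT_hyPB, and over number-matched sites 60.4% ± 0.76 and 59.0% ± 0.62 (SD, n = 3). The difference was thus -3.08 points in the first comparison and 1.40 points in the second, each without overlap and each with p = 0.1 (adjusted p = 0.109, exact permutation test). Within WT_hyPB the gene share was 59.0% ± 0.62 in the tallest class and 64.6% ± 0.22 in the lowest (SD, n = 3).

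Insertions within genes differed in the strand they were read from. Each peak has the strand in which transcription left the transposon, and it was set against the strand of the protein-coding gene around it, leaving out sites where genes of both strands overlap. In short_hyPB 39.7%, 40.7% and 41.2% of such sites had the strand of the gene, and in WT_hyPB 34.9%, 34.6% and 33.2%. Means were 40.6% ± 0.76 and 34.2% ± 0.90 (SD, n = 3), a difference of 6.33 points ± 0.68 (SE), and 5.48 points ± 0.90 (SE) among number-matched sites, at 40.6% ± 0.70 and 35.2% ± 1.39. No libraries overlapped (exact permutation test, p = 0.1, adjusted p = 0.109). This share was flat along the wild-type height classes, from 35.2% in the tallest to 34.7% in the lowest, so that no wild-type class reached the short_hyPB value. Away from start sites, beyond 5 kb, the shares were 40.1% ± 0.23 of a mean of 1814 sites and 34.0% ± 1.00 of 137894 sites, and within 5 kb 41.5% ± 1.81 and 35.1% ± 0.51 (SD, n = 3). The labels say that cDNA was amplified with primers inside each transposon and do not say from which end or whether they were the same for both, and the part of this in the strand shares was not tested.

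Many short-transposon insertions stood at bases that the wild-type transposon used as well. Of short_hyPB peaks, 40.2% ± 0.64 (SD, n = 3 libraries, averaged over partners) were listed in a given WT_hyPB library at the same base and strand, and 32.3% ± 0.25 at the same base on the opposite strand. Pairs of short_hyPB libraries shared 22.5% ± 0.91 and 4.54% ± 0.14, so the same strand was listed 4.96 times as often as the opposite one, against 1.24 times with WT_hyPB. WT_hyPB replicates, leaving out the pair of replicates 1 and 2, shared 25.1% ± 1.46 and 12.5% ± 0.72, a ratio of 2.01. The shared positions were tall in WT_hyPB, with median heights of 45 to 53 against 10 to 11 over all its peaks. At equal numbers of sites the picture differed: 2 short_hyPB libraries had 21.0% to 21.6% of positions and strands in common, a short_hyPB and a WT_hyPB library 9.96% to 10.9%, WT_hyPB replicates 1 or 2 with 3 41.1% to 41.3%, and replicates 1 with 2 76.6%. Replicate sharing over number-matched sites was 21.3% ± 0.16 in short_hyPB and 53.0% ± 10.2 in WT_hyPB (SD, n = 3; exact permutation test, p = 0.1, adjusted p = 0.109), and over all sites 22.5% ± 0.91 and 41.4% ± 15.5, with overlap (p = 0.2). Drawing 6896 sites at random from each library in place of the tallest turned the number-matched difference from -31.7 to 19.7 points. Without WT_hyPB replicate 3 it was -55.3 points, and without replicate 1 or 2 -19.86 and -20.02; over all sites the difference was -52.2, -2.35 and -2.13 points.

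**Figure D4:**
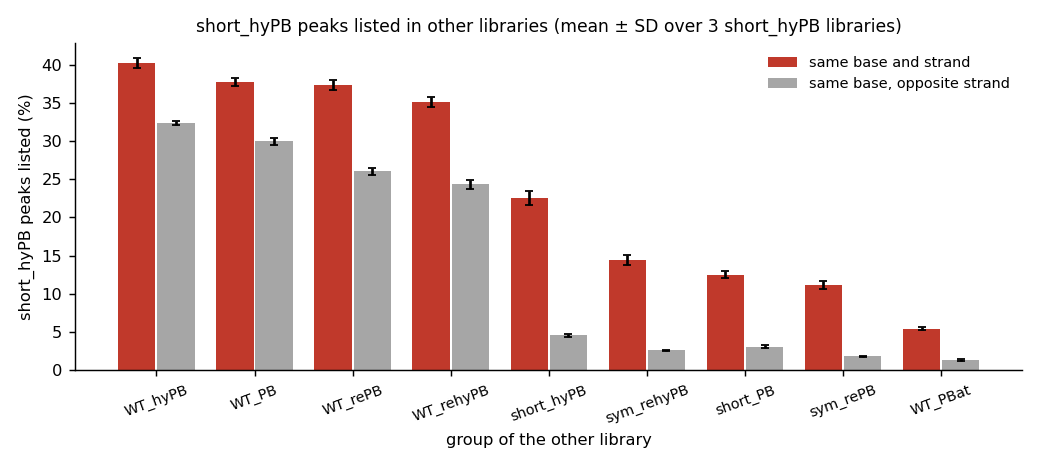
Share (%) of short_hyPB peaks listed in a library of each group at the same base and strand (red) or the same base and opposite strand (grey), as mean ± SD over the 3 short_hyPB libraries. The bars for WT_hyPB stand at 40.2% and 32.3%, those for other short_hyPB libraries at 22.5% and 4.54%; the groups differ widely in their number of listed sites, which sets how many can be found.

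Recurrence among short_hyPB libraries went with use by the wild-type transposon. Of 18279 distinct positions and strands, 15140 were listed in 1 short_hyPB library, 2197 in 2 and 942 in all 3. Any WT_hyPB library listed 48.0%, 58.8% and 61.8% of these classes, and the start-site share was 27.1%, 32% and 34.2%. The median WT_hyPB height at the shared positions was 38.5, 70 and 94. Among the tallest of the 942 was chr12:12883057-12883060, 8505 bases from GPRC5A, an orphan receptor induced by retinoic acid, with heights of 57, 64 and 58 in short_hyPB and 226, 225 and 220 in WT_hyPB. At chr22:37777117-37777120, 561 bases from TRIOBP, which encodes an actin-bundling protein, heights were 24, 73 and 21 against 190, 188 and 160. Both positions were listed in all 6 libraries, and in the second short_hyPB replicate 2 stood apart.

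The other 360 of the 942 positions, 38.2%, were listed at the same base and strand in no WT_hyPB library in spite of its far larger lists. Whether WT_hyPB listed these bases on the opposite strand was not tested. Of these, 65.3% were listed in a short_PB library, 65.6% in sym_rePB and 78.3% in sym_rehyPB, against 29.4% in WT_PB, 30.6% in WT_rePB and 45.3% in WT_rehyPB. Because the 360 were chosen for absence from WT_hyPB, lower shares in other groups of the wild-type transposon follow in part from the choice. Over all 942 positions the shares were 67.5% in short_PB, 65.1% in sym_rePB and 78.8% in sym_rehyPB. In WT_PB, WT_rePB and WT_rehyPB they were 70.9%, 71.0% and 76.2%. The 582 positions that WT_hyPB did list had 96.6% in WT_PB and 68.9% in short_PB. The tallest without WT_hyPB was chr17:57879066-57879069 in CUEDC1, with heights of 48, 50 and 33. This position was listed in 1 short_PB, 2 sym_rePB, 3 sym_rehyPB, 1 WT_rehyPB and 1 WT_PBat library and in 0 WT_PB libraries. In VTI1A, which encodes a SNARE protein of vesicle fusion, chr10:112530958-112530961 had heights of 40, 45 and 43. That position was listed in 2 short_PB, 2 sym_rePB, 3 sym_rehyPB, 2 WT_PB, 1 WT_rehyPB and 1 WT_PBat library. In CRTAP, whose product acts in collagen prolyl hydroxylation, chr3:33115319-33115322 had heights of 28, 52 and 32. The CRTAP position was listed in 2 short_PB libraries and in 3 libraries each of sym_rePB and sym_rehyPB. It was listed in 0 of the 12 libraries that paired the wild-type transposon with a form of piggyBac. These positions are named for their height among positions chosen by recurrence, as a description with no test. The gene REM2, a small GTPase only 4.46 kb long and named after its values were seen, showed both kinds of position, and a shared one, close together. WT_hyPB listed a site at chr14:22887231-22887234 with heights of 270, 289 and 203, where no short_hyPB library listed one. At chr14:22887352-22887355 and chr14:22887453-22887456 all 3 short_hyPB libraries listed sites, with heights of 6, 9 and 6 and of 14, 9 and 5, and no WT_hyPB library did. At chr14:22887549-22887552 the WT_hyPB libraries had heights of 135, 124 and 175, and short_hyPB replicates 2 and 3 listed the site at 5 and 9.

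Along the genome, the segments in which short-transposon insertions were relatively denser held more genes than those in which they were sparser. Of 443 bins of 5 Mb with 20 or more number-matched sites, 75 were called by limma at an adjusted p under 0.05, 16.9% of the bins, 40 higher in short_hyPB (9.03%) and 35 lower (7.9%). With each library scaled to its median bin, the split was 29 higher and 55 lower. The bins that were higher held a median of 72 protein-coding genes and those that were lower 20, against 29 over all tested bins. Chromosome 19, the most gene-dense autosome, had 10 of the tested bins and held 6 of the 40 higher bins and 0 of the 35 lower. Where WT_hyPB replicates 1 and 2 were averaged, 36 bins were called, 18 in each direction, and all 36 were among the 75. Without WT_hyPB replicate 3 there were 27, without replicate 2 33 and without replicate 1 47. Values of single segments below come from the fit that keeps all 6 libraries as separate samples. Which of these segments stayed called with the averaged replicates is not given here.

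Among the called bins, the largest rises lay at chr9:1-5000000, chr3:180000001-185000000, chr7:150000001-155000000, chr5:175000001-180000000 and chr11:60000001-65000000. The last, with 146 protein-coding genes, held 23, 25 and 22 sites in short_hyPB and 9, 8 and 15 in WT_hyPB, a log2 difference of 1.14 ± 0.22 (SE, limma adjusted p = 0.000261). The segment chr5:175000001-180000000 held 16, 13 and 17 against 5, 5 and 8 sites, a log2 difference of 1.31 ± 0.28. The libraries did not overlap in either segment. The segment chr9:1-5000000 held 8, 5 and 6 sites against 1, 1 and 3. Most of the sites that took it past the minimum of 20 were thus in short_hyPB, the group where it was higher. Of the 443 tested bins, 67 were higher (15.1%) and 66 lower (14.9%) in short_hyPB without overlap. The largest falls among the called bins lay at chr18:70000001-75000000, chr2:155000001-160000000, chr3:175000001-180000000, chr1:235000001-240000000 and chr3:150000001-155000000. The segment of chromosome 18, with 12 protein-coding genes, held 6, 4 and 8 sites against 20, 23 and 19, a log2 difference of -1.75 ± 0.26 (limma adjusted p = 5.53e-06). Neighbouring segments of chromosome 3 moved in opposite directions: chr3:180000001-185000000 held 8, 12 and 8 sites against 3, 1 and 5 (log2 difference 1.66 ± 0.44), and chr3:175000001-180000000 held 12, 8 and 3 against 15, 16 and 14 (-1.11 ± 0.31). Over all sites, 323 of 588 bins were called (54.9%), 130 higher (22.1%) and 193 lower (32.8%) around a median log2 difference of -0.40, and 189 higher and 116 lower after scaling to the median bin.

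By chromosome, 13 of 23 had number-matched shares that did not overlap between the groups (56.5%), 7 higher (30.4%) and 6 lower (26.1%) in short_hyPB. Chromosome 19 took 3.86%, 4.07% and 4.23% of short_hyPB sites and 2.57%, 2.57% and 2.41% of WT_hyPB sites, or 1.61 times as much. Chromosome 22 took 2.2% ± 0.059 and 1.61% ± 0.087, and chromosome 4, which is poor in genes, 6.60% ± 0.10 and 7.70% ± 0.30 (SD, n = 3). Over all sites the contrast was wider on chromosome 19, at 4.01% ± 0.14 and 1.52% ± 0.034, and chromosome 17 took 6.12% ± 0.076 and 3.81% ± 0.025 (SD, n = 3). On chromosome 17 the number-matched shares overlapped, at 6.09% ± 0.081 and 5.97% ± 0.38.

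The genes that collected most insertions were largely the same for both transposons. Of the 50 protein-coding genes with the highest mean share in short_hyPB, 38 were among the 50 highest of WT_hyPB in number-matched sets and 27 over all sites. PCDH7, a protocadherin of cell adhesion at chr4:30720369-31146800, came first with 132, 129 and 110 sites in the short_hyPB sets and 154, 166 and 164 in the WT_hyPB sets. All WT_hyPB libraries lay above all short_hyPB libraries there, as in 44 of 195 tested genes (22.6%). The log2 difference of -0.39 ± 0.078 (SE) missed the threshold (limma adjusted p = 0.0563). Over all sites the order turned, with 179 ± 16.4 sites per 10000 in PCDH7 in short_hyPB and 34.8 ± 0.60 in WT_hyPB (SD, n = 3). VTI1A at chr10:112446988-112855368 held 44, 40 and 45 against 40, 42 and 45 sites, with overlap, and over all sites 61.3 ± 3.71 against 15.2 ± 0.29 per 10000. DLGAP1, a scaffold protein of the postsynaptic density at chr18:3496032-4455307, held 40, 37 and 38 against 41, 40 and 37, also with overlap. PHLDB2, which anchors microtubules at the cell cortex, held 34, 35 and 38 against 44, 42 and 34. MPP7, a membrane-associated guanylate kinase, held 36, 25 and 30 against 47, 46 and 46 (log2 difference -0.62 ± 0.14, limma adjusted p = 0.0695). The remaining genes of the top 10 were NSMCE2, PPP3CA, PALLD, MTHFD1L and PDE4B. Of these, PALLD, an actin-binding protein, held 23, 28 and 23 against 30, 37 and 36, and PPP3CA, the catalytic subunit of calcineurin, 30, 22 and 25 against 30, 32 and 35. In number-matched sets, 4025 protein-coding genes held a short_hyPB site in any library and 2378 a WT_hyPB site. The 1509 in common were 37.5% of the first and 63.5% of the second. Over all sites the order was the other way, at 4191 genes in short_hyPB and 16278 in WT_hyPB. The linked WT_hyPB replicates share most of their sites, and the part of this in the number-matched counts was not tested.

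**Figure D5:**
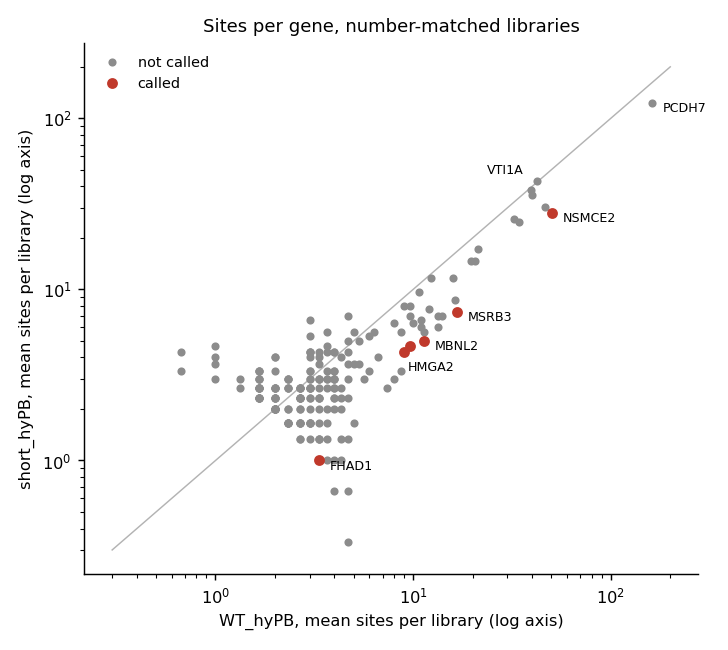
Mean number of sites per library (log axes) in each of the 195 protein-coding genes tested in number-matched sets, short_hyPB against WT_hyPB, with the line of equality; red points are the 6 genes called by limma. PCDH7 has the most sites on both axes and lies below the line, as do all 6 called genes.

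Of 195 protein-coding genes with 12 or more number-matched sites, 6 were called (3.08%), all lower in short_hyPB, against a median log2 difference of -0.28 over the 195. NSMCE2, a SUMO ligase of the SMC5/6 complex, held 26, 34 and 24 sites against 48, 51 and 53 (log2 difference -0.86 ± 0.14). MSRB3, a methionine sulfoxide reductase at chr12:65278683-65466907, held 6, 7 and 9 against 16, 18 and 16 (-1.15 ± 0.17). MBNL2, a splicing regulator, held 5, 4 and 6 against 12, 10 and 12. HMGA2, an architectural chromatin protein at chr12:65824460-65966291, held 4, 5 and 4 against 9, 8 and 10, and FHAD1 1, 1 and 1 against 3, 3 and 4. Most of the sites that took FHAD1 past the minimum of 12 were in WT_hyPB, the group where it was higher. In none of these 5 did libraries overlap, and 44 of the 195 genes (22.6%) were lower without overlap. Each of the 5 had a limma adjusted p of 0.0354. With sites drawn at random in equal number the log2 difference turned to 1.95 in NSMCE2, 1.78 in MSRB3, 0.45 in MBNL2 and 0.75 in HMGA2. When WT_hyPB replicates 1 and 2 were averaged, limma called 0 of 195 genes, with 35 at an unadjusted p under 0.05, and it called 0 without any 1 of the 3 WT_hyPB replicates, with 28 to 36. Without short_hyPB replicate 1 it called 17 genes, 2 of them higher. A few genes just outside the threshold, named after their values were seen, had higher values in short_hyPB: KCTD1, a transcriptional repressor, with 4, 7 and 3 sites against 1, 1 and 1 (limma adjusted p = 0.0515), and GSE1, a chromatin corepressor protein, with 5, 7 and 8 against 3, 3 and 3 (limma adjusted p = 0.0539). Both passed the minimum of 12 sites only through short_hyPB.

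Over all sites, 7409 of 9567 genes were called (77.4%), 7022 higher (73.4%) and 387 lower (4.05%), but 5948 of the 9567 had 0 sites in all 3 short_hyPB libraries, where the pseudocount of 0.5 sites sets the value. After scaling to the median gene, 2868 were higher and 2056 lower. These calls are not read further. Any short_hyPB library placed a site in 4191 of 19974 protein-coding genes and any WT_hyPB library in 16278.

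Sites in the members of 8 gene lists were counted per number-matched set. Over all lists 0 members were called, and most members held too few sites to be tested. Among genes tested singly, 5.64% were higher and 22.6% lower in short_hyPB without overlap. The 26 BET and chromatin-reader genes, a family that includes partners proposed to tether piggyBac to chromatin, held 8, 7 and 9 sites in short_hyPB and 1, 0 and 1 in WT_hyPB, with no overlap. CHD2, a chromatin remodeller at chr15:92900324-93027996, gave 4, 3 and 3 of these against 1, 0 and 1 (log2 difference 1.87 ± 0.55, limma adjusted p = 0.088), HDGF 1, 1 and 1 against 0, 0 and 0, and BPTF, a subunit of the NURF remodeller, 0, 1 and 1 against 0, 0 and 0. Over all sites this list held 11.9 ± 1.64 and 12.5 ± 0.44 sites per 10000 (SD, n = 3), with overlap, so the contrast lay with the tallest wild-type sites. The 30 gut epithelial transcription factors held 5, 7 and 6 against 8, 11 and 10 sites, with no overlap, of which GATA4 gave 0, 0 and 2 against 2, 3 and 2 and TEAD1 2, 3 and 3 against 1, 3 and 4. The 36 ribosomal protein genes, short and highly transcribed, held 1, 1 and 1 against 3, 2 and 2.

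The remaining lists overlapped in the number-matched sets. The 30 Wnt pathway genes held 16, 13 and 10 against 12, 12 and 12 sites, among them TCF7L2, the transcription factor at the end of the pathway, with 2, 2 and 3 against 3, 2 and 4. The 30 growth factor and RAS-PI3K genes held 13, 9 and 23 against 15, 13 and 15, of which the receptor MET gave 5, 3 and 9 against 10, 9 and 7. The 30 tumour suppressors and cell-cycle brakes held 16, 12 and 9 against 9, 12 and 9, with SMAD3, a transducer of TGF-beta signals, at 7, 4 and 4 against 5, 6 and 5. The 30 long neuronal genes held 8, 2 and 5 against 6, 4 and 5, and the 17 common fragile site genes 8, 11 and 10 against 12, 11 and 5. Over all sites 3 of these lists did not overlap. The ribosomal protein genes did not overlap there either, at 1.38 ± 0.065 in short_hyPB and 3.13 ± 0.076 in WT_hyPB per 10000 sites. The share of all genes without overlap was counted only in number-matched sets, so these lists are given as a description. The Wnt genes held 18.3 ± 3.45 sites per 10000 in short_hyPB and 22.9 ± 0.79 in WT_hyPB, long neuronal genes held 7.22 ± 4.62 and 41.2 ± 1.28 sites per 10000 and fragile site genes 15.6 ± 0.69 and 48.8 ± 0.22 (SD, n = 3), higher in WT_hyPB in all libraries. LRP1B, a large lipoprotein receptor that belongs to both lists, held 3, 0 and 2 against 4, 2 and 1 number-matched sites.

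With the parental transposase the same exchange of transposon gave a different shift in the shares near start sites and gene ends. The start-site share of all sites was 24.3% ± 0.64 in short_PB and 15.7% ± 0.16 in WT_PB (SD, n = 3), a difference of 8.59 points against 12.5 under hyperactive piggyBac. Among number-matched sites the parental pair differed by -1.83 points, at 24.9% ± 0.55 and 26.7% ± 0.58, and the hyperactive pair by 2.09. The difference between the pairs was 3.96 points for all sites and 3.92 for number-matched sites (two-sided exact permutation of the transposon labels within each transposase after removal of the common effect, p = 0.005, the smallest it can give; adjusted p = 0.0125 over 10 tests). For the gene-end share it was 2.52 and 2.54 points with the same p. The strand share within genes differed by 4.89 points in the parental pair and 6.33 in the hyperactive pair over all sites, with a difference of 1.44 points (exact permutation test, p = 0.245, adjusted p = 0.306). Gene share (adjusted p = 0.13 and 0.243 in these exact permutation tests) and replicate sharing (0.367 and 0.243) missed the threshold as well. The parental libraries listed 9027 to 9212 sites in short_PB and 346918 to 437446 in WT_PB, against 6896 to 7505 and 408331 to 453193 in the hyperactive pair, and the part of these differences in number was not tested.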

How the data were processed

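Per the labels' protocols, RNA was reverse-transcribed with an oligo-dT primer, amplified from within the transposon and tagmented. The submitters' processing notes name cutadapt 3.4, HISAT2 2.2.1.0 and the builds hg38 and GRCh38.p5; the peak caller is not given in the sources used here. The authors deposited 1 list of peaks per library, called on each library separately, and the deposited heights are coverage signal that was not scaled to library size, with a lowest value of 5. The lists have no header. Reads were PCR products without molecular identifiers, so heights do not count independent molecules. A constant per file was taken as the library total, which nothing states.

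A site was the 5′ edge of a peak, shifted by 3 bases on the minus strand, and each position was counted once per library with the strand of its taller peak; sharing used position and strand. Genes came from RefSeq (GRCh38.p14), and start sites and gene strands from its promoter windows, present for 15812 of 19974 protein-coding genes, so distances to start sites are upper bounds. Exon, intron and UTR positions were not resolved because no exon annotation was used here. Chromosomes 1 to 22 and X were kept.

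Shares were compared by two-sided exact permutation tests with Benjamini-Hochberg adjustment. Bins (20 or more sites) and genes (12 or more) were fitted with limma 3.58.1 in R 4.3.3 (lmFit, eBayes with trend) on log2 of sites plus 0.5 per 10000 sites. The fits were tested on simulated data. Number-matched sets broke ties at random with a fixed seed. Python 3.11.15 was used. Replicate numbers of the groups did not pair the libraries (correlations of deviations 0.052, 0.010 and -0.040). Genes were named by rule: the 10 with the highest short_hyPB share, called genes and the 5 largest bins in each direction, 3 members per list and the 5 tallest recurring promoters; others are marked as chosen after their values were seen, and 1 called gene is not reported here. Members, lists and tests were chosen with earlier results of these data known. Alternatives (other numbers, heights, distances, bins, pseudocounts, scaling, voom, left-out and averaged replicates) are in the closing section.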

Additional observations from a re-analysis of the deposited data

Results flagged for a closer look

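The difference between short and wild-type transposon in the shares near start sites and gene ends was not the same under hyperactive and parental piggyBac, which is why these results are listed. For the share within 5 kb of a start site, short minus wild-type was larger under the hyperactive form by 3.96 percentage points over all sites and by 3.92 over number-matched sites. For the share within 5 kb of a gene end it was larger by 2.52 and 2.54 points. Among number-matched sites the parental differences were negative, at -1.83 points for start sites and -0.75 for gene ends. Each had p = 0.005 in the two-sided exact permutation test, the smallest it can give, and adjusted p = 0.0125 over 10 tests. All 3 short_hyPB libraries lay above all 3 short_PB libraries in each of these shares: the lowest short_hyPB start-site share was 28.4% and the highest short_PB value 24.99%. Groups of 3 are too small for a check of single outlying libraries.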

How the results depend on the processing

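The orders of start-site, gene-end and strand shares over all sites held under each alternative run; the number-matched strand share did too, between 4.25 and 7.10 points. The number-matched gene share difference was -0.436 points among heights of 10 and above and -2.76 with sites drawn at random. The number-matched gene-end difference was -1.02 points and the start-site difference -0.83 within 1 kb. Number-matched replicate sharing differed by 19.7 points with random sites and 6.53 with heights thinned to the smallest total. Number-matched bins called were 36 with WT_hyPB replicates 1 and 2 averaged, 17 at heights of 10 and above, 235 with random sites and 8 with thinned heights. Number-matched genes called were 0 with averaged replicates, 0 with the replicate block (57 at an unadjusted p under 0.05 in limma), 11 at heights of 10 and above, 10 with a pseudocount of 2, 306 with no minimum, 42 with random sites, 15 with thinned heights and 44 at equal fractions of the total. Over all sites, bins called were 983 at 1 Mb and 199 at 10 Mb, and genes called 14226 with no minimum and 4924 after median scaling. With random sites, log2 differences turned to 1.95 in NSMCE2, 1.78 in MSRB3, 0.45 in MBNL2, 0.75 in HMGA2, -0.36 in chr9:1-5000000 and -0.26 in chr3:180000001-185000000; the last was -0.49 at equal fractions. The causes were not tested. Of 355 recomputed values of named genes and bins, 244 counted as the same. For called features this meant the same direction and an adjusted p under 0.05. For the others it meant a log2 difference that moved little against its SE, whatever its sign.

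Leaving out 1 library at a time, number-matched bins called ranged from 27 to 90, number-matched genes from 0 to 17, bins over all sites from 220 to 364 and genes from 5088 to 7535. Differences between the hyperactive and parental pairs ranged from -1.63 to -0.877 points for gene share of all sites, from -41.3 to 8.69 for replicate sharing of all sites and from -32.6 to 2.86 when number-matched. The replicate block moved number-matched bins from 75 to 68; the numbers are not known to pair libraries. Of short_hyPB sites, 54.8% stand at heights of 5 or 6, the lowest listed being 5.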
